A study of Mus musculus with 10 samples.

Results

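The brush border peptidases examined here are 6 genes, Anpep, Dpp4, Mep1a, Mep1b, Xpnpep2 and Tmprss15, chosen by name from the 36401 genes listed for each library. Each symbol matched 1 gene, and 5 of the 6 passed the filter on low counts (edgeR's filterByExpr), which left 15678 genes for testing. Tmprss15 did not pass. Each of 2 groups held 5 libraries, made from terminal ileum RNA of C57Bl6 males. VSG mice underwent vertical sleeve gastrectomy, in which most of the gastric body is cut away to leave a narrow tube, and then ate ad libitum. SPF mice had sham surgery and were pair-fed to the VSG mice. Both groups were fed a diet with 60% of its energy from fat for 6 weeks before surgery, which made them obese, and were 8 weeks old at surgery per the labels. Both were fasted overnight and sampled about 8 weeks later, when 1 hour had passed since they received 0.5 mL of Osmolite, a liquid food, by gavage. An unoperated or lean group was not analysed here, so the comparison is between surgery with free feeding and sham surgery with restricted feeding.

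Peptidases anchored in the microvilli of enterocytes finish the digestion of dietary protein. Pancreatic proteases leave oligopeptides in the lumen, brush border exopeptidases trim these from the ends, and carriers take up the resulting amino acids and short peptides. Several of the same enzymes also cut hormones and other signalling peptides, and enteropeptidase starts the chain by activating pancreatic trypsinogen. Their genes are used unequally along the small intestine, so the place of sampling matters for their levels.

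Total estimated counts ranged from 15364651 to 30401105 in the VSG libraries and from 16848364 to 34058181 in the SPF libraries. Levels are given as CPM (counts scaled to library size) after TMM normalisation. VSG 2, SPF 2 and SPF 4 stood apart from the other 7 libraries by markers of gut position, a split known from earlier work on these data. Gata4, which encodes a GATA factor active in duodenum and jejunum, was at 109 to 183 CPM in them and at 1.72 to 6.28 CPM in the other 7. Fabp6, whose product carries bile acids inside ileal enterocytes, was at 39.0 to 62.1 CPM in the 3 and at 2558 to 6112 CPM in the other 7. Of 8 markers of the upper small intestine, 5 were higher in all 3 libraries than in any of the other 7. Pdx1 and the duodenal ferric reductase gene Cybrd1 overlapped, and the iron exporter gene Slc40a1 ran the other way, at 3.68 to 13.6 CPM in the 3 and 35.8 to 98.3 CPM in the 7. All 5 ileal markers were lower in the 3 than in any of the 7. The label of terminal ileum is thus not matched by most markers of position in these libraries, and the comparisons of VSG with SPF for the tested genes and lists are given with and without them. The 12 enterocyte markers were detected in every group, with a summed level of 23526 to 34556 CPM in VSG and 15774 to 31695 CPM in SPF. Of 14 genes of pancreatic digestive enzymes, 13 averaged under 1 CPM over the 10 libraries.

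Anpep (ENSMUSG00000039062, chromosome 7) encodes aminopeptidase N, which removes single amino acids from the amino end of peptides. It had the highest mean level of all 36401 genes, at 9537 CPM over the 10 libraries. Its levels were 10071, 8918, 10842, 13106 and 12931 CPM in VSG 1 to VSG 5, and 8997, 10643, 10724, 3214 and 5925 CPM in SPF 1 to SPF 5. The highest 3 libraries were all VSG and the lowest pair SPF 4 and SPF 5, but the groups overlapped. The mean was 11174 ± 1819 CPM in VSG and 7900 ± 3262 CPM in SPF (SD, n = 5 each). The log2 fold change of VSG over SPF was 0.50 ± 0.35 (SE), with a 95% interval from -0.26 to 1.26 (edgeR quasi-likelihood test, Benjamini-Hochberg adjusted p = 0.977). Without VSG 2, SPF 2 and SPF 4 it was 0.46 (-0.18 to 1.10).

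Dpp4 (ENSMUSG00000035000, chromosome 2) encodes dipeptidyl peptidase 4, which removes dipeptides that end in proline or alanine and inactivates the incretin hormones. Its levels were 722, 1125, 886, 1266 and 1112 CPM in VSG 1 to VSG 5, and 836, 1146, 838, 450.3 and 607 CPM in SPF 1 to SPF 5. SPF 4 and SPF 5 were again the lowest, and the groups overlapped over most of their range. The mean was 1022 ± 216 CPM in VSG and 775 ± 264 CPM in SPF (SD, n = 5 each). The log2 fold change was 0.40 ± 0.26 (SE, 95% interval -0.18 to 0.97, edgeR adjusted p = 0.977), and 0.39 (-0.16 to 0.95) without the 3 libraries. T cells also carry this enzyme on their surface. The summed level of 8 T cell markers was 13.4 to 41.2 CPM in VSG and 14.6 to 54.6 CPM in SPF, and their part in the Dpp4 level was not tested.

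Mep1a and Mep1b encode the alpha and beta subunits of meprin, a zinc endopeptidase. In mice the beta subunit is anchored in the membrane and releases the mucin Muc2 from the small intestinal epithelium, while the alpha subunit stays at the membrane only when bound to beta. Mep1b (ENSMUSG00000024313, chromosome 18) stood at 1598, 1428, 1757, 1871 and 1736 CPM in VSG 1 to VSG 5, and at 1236, 1681, 1646, 811 and 929 CPM in SPF 1 to SPF 5. The VSG libraries lay close together and the SPF libraries were spread, with 3 of 5 below every VSG library. The mean was 1678 ± 170.2 CPM in VSG and 1261 ± 399 CPM in SPF (SD, n = 5 each). The log2 fold change was 0.41 ± 0.24 (SE, 95% interval -0.10 to 0.93). It had the lowest p of the tested members (edgeR unadjusted p = 0.107, adjusted p = 0.977). Without the 3 libraries it was 0.46 (-0.067 to 0.98).

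Mep1a (ENSMUSG00000023914, chromosome 17) behaved differently from its partner. Its levels were 2026, 269, 1274, 2587 and 2658 CPM in VSG 1 to VSG 5, and 1760, 444, 2297, 88.7 and 1372 CPM in SPF 1 to SPF 5. All of VSG 2, SPF 2 and SPF 4, at 88.7 to 444 CPM, lay below all of the other 7 libraries, at 1274 to 2658 CPM. Of all genes tested, 5.64% had these 3 libraries below the other 7. Mep1b ranged only 2.31-fold between its highest and lowest library. The group means were 1763 ± 1003 CPM in VSG and 1192 ± 915 CPM in SPF (SD, n = 5 each). The log2 fold change was 0.56 ± 0.76 (SE, 95% interval -1.10 to 2.23, edgeR adjusted p = 0.977), and without the 3 libraries 0.24 (-0.46 to 0.94). In those 7 libraries the means were 2136 ± 640.5 CPM in VSG (SD, n = 4) and 1810 ± 464 CPM in SPF (SD, n = 3).

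The balance of the meprin subunits therefore differed by library. The ratio of Mep1b to Mep1a, in CPM, was 0.789, 5.32, 1.38, 0.723 and 0.653 in VSG 1 to VSG 5. In SPF 1 to SPF 5 it was 0.702, 3.79, 0.717, 9.14 and 0.677. Reads of the beta subunit outnumbered those of the alpha subunit in VSG 2, SPF 2, SPF 4 and VSG 3, and the reverse held in the other 6. CPM takes no account of length, and the merged exons are longer for Mep1a (3452 bases) than for Mep1b (2625 bases). Per kilobase, Mep1b was also above Mep1a in VSG 1, at 609 against 587. VSG 3, at 1.38, had the highest ratio among the 7 libraries with ileal markers. Its Gata4 level of 6.28 CPM was the highest of those 7, against 109 to 183 CPM in the 3. The part of gut position in its ratio was not tested.

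Xpnpep2 (ENSMUSG00000037005, chromosome X) encodes membrane-bound aminopeptidase P, which cuts peptides whose next residue is proline, bradykinin among them. Its levels were 629, 280, 468, 974 and 946 CPM in VSG 1 to VSG 5, and 663, 481, 768, 35.8 and 436 CPM in SPF 1 to SPF 5. VSG 4 and VSG 5 were the highest, SPF 4 was far below all others, and VSG 2 was next to lowest. SPF 2 lay inside the range of the other 7. The mean was 659.5 ± 301 CPM in VSG and 477 ± 281 CPM in SPF (SD, n = 5 each). The log2 fold change was 0.47 ± 0.61 (SE, 95% interval -0.87 to 1.80, edgeR adjusted p = 0.977). It was 0.28 (-0.43 to 0.99) without the 3 libraries, and 0.18 (-0.63 to 0.99) when SPF 4 alone was left out.

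Tmprss15 (ENSMUSG00000022857, chromosome 16) encodes enteropeptidase, a serine protease of the duodenal brush border that activates trypsinogen. In estimated counts rounded to whole reads, SPF 4 held 565 reads, or 31.5 CPM. VSG 4, SPF 2 and SPF 3 held 1 read each, and the other 6 libraries none. A count of 0 allows up to 3 reads, which is 0.0881 to 0.195 CPM of the total in those 6 libraries, and this limit covers counting error only. On the same scale SPF 4 stood at 33.5 CPM (exact binomial 95% interval 30.8 to 36.4), and its lower bound is at least 157-fold higher than the limit of any library with no read. The limit and the interval treat the rounded estimates as observed reads. VSG 2 and SPF 2, which shared high Gata4 with SPF 4, held 0 and 1 reads. Pdx1, another gene of the upper small intestine list, followed the same split, at 14.5 CPM in SPF 4 and at most 0.354 CPM elsewhere. The VSG and SPF groups differ in Tmprss15 through this library alone. With the filter on low counts removed, its edgeR unadjusted p was 0.0062 and its adjusted p 0.819.

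**Figure D1:**
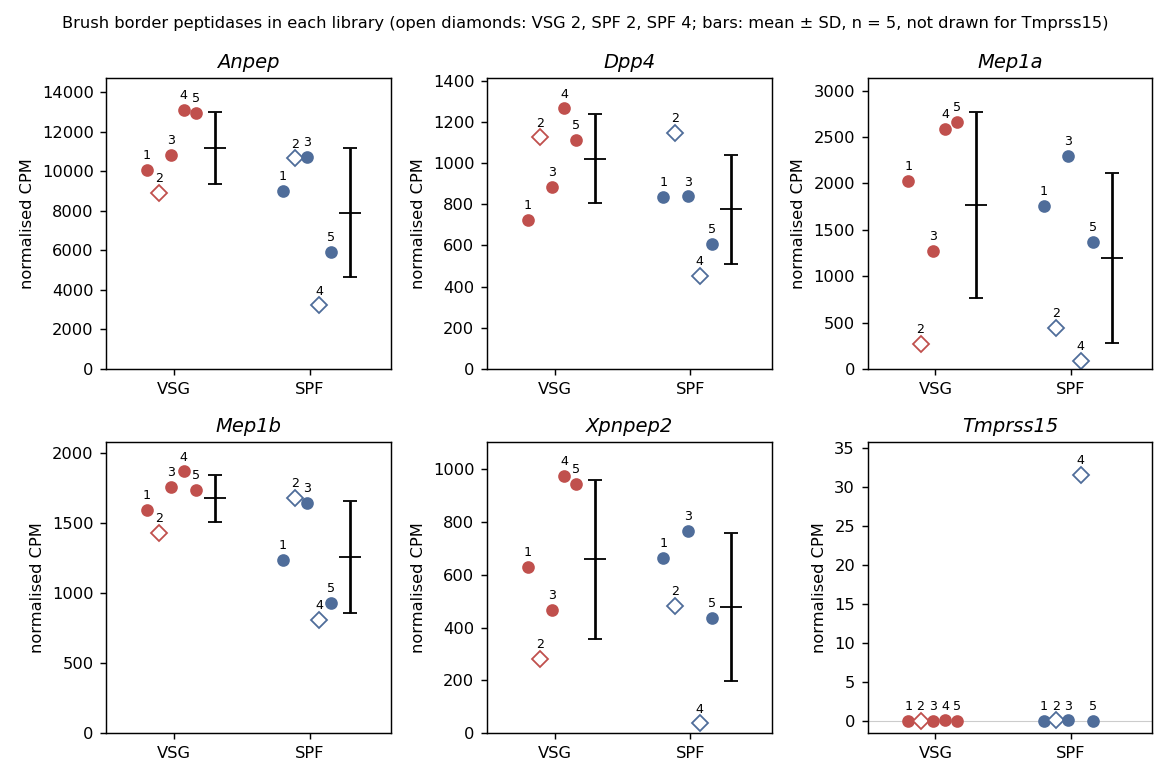
Normalised CPM (vertical axis, linear) of each peptidase in each library, VSG left and SPF right, with the library number beside each point. Bars are mean ± SD (n = 5) and are not drawn for Tmprss15. Open diamonds mark VSG 2, SPF 2 and SPF 4, which lie below all others for Mep1a (88.7 to 444 CPM), while Tmprss15 is seen in SPF 4 at 31.5 CPM.

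The start regions of Mep1a and Xpnpep2, the most variable of the tested members, and of Tmprss15 are shown. SPF 4 was lowest for all 5 tested members and highest for Tmprss15. Each is the 250 bases before the RefSeq start in GRCm38.p6, 5′ to 3′ on the gene's strand, with capitals for the motifs searched.
Mep1a: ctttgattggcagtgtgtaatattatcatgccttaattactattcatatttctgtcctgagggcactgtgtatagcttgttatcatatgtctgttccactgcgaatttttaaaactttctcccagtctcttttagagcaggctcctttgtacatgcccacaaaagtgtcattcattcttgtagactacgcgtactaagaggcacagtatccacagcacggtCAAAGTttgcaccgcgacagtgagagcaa
Xpnpep2: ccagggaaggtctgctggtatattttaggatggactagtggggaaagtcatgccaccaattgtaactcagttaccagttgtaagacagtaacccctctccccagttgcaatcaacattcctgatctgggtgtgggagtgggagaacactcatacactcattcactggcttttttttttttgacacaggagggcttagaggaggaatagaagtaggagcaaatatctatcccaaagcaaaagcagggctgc
Tmprss15: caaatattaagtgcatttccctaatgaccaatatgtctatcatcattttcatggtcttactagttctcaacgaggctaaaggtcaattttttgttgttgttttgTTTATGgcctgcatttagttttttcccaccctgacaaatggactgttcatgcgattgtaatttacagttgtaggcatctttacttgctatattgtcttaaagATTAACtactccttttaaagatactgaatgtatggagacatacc
These windows lie at chr17:43502774-43503023 (minus strand), chrX:48108475-48108724 (plus strand) and chr16:79091098-79091347 (minus strand). RefSeq windows were at hand for 5 of the 6 genes. The search covered both strands. GATA family factors were searched by the letters AGATAA, and the caudal factors (CDX) by TTTATG. Part of the HNF1 site was searched as GTTAAT and part of the HNF4 site as CAAAGT. The core promoter box was searched as TATAAA, and no matches in these windows overlapped. Mep1a held CAAAGT 23 bases before its start, a match found in 12.6% of 32851 such windows. Tmprss15 held GTTAAT on the opposite strand, 38 bases before its start (6.43% of windows), and TTTATG at 140 bases (10.8%). Xpnpep2 held none of the 5 motifs, nor did Anpep. Dpp4 held AGATAA 26 bases before its start (9.99%) and TATAAA at 221 bases (12.4%). The GC content of the windows was lowest for Tmprss15, 41.6% for Mep1a, 43.6% for Dpp4, 46.0% for Xpnpep2 and 72.8% for Anpep, against a median of 52.4% over all windows. These matches describe letters only.

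No member was called different between VSG and SPF, and the groups overlapped for all 6. Of all genes tested, 0.255% had every VSG library above every SPF library and 0.293% the reverse. Of all genes tested, 0% were called by edgeR at an adjusted p under 0.05, and 3.80%, or 595 genes, had an unadjusted p under 0.05. DESeq2 called 14 genes, 0.0570% of those tested, and limma-voom 0, with no member among them. All 5 tested members had fitted values above 0, with a median of 0.47 on the log2 scale, while 41.9% of all genes tested were above 0 and their median was -0.05. Without VSG 2, SPF 2 and SPF 4 the 5 were again above 0, against 43.2% of all genes. The 5 are not independent of each other, as described below. The upper bounds of the intervals ran from 0.93 for Mep1b to 2.23 for Mep1a, and under the alternatives they reached 1.12 for Mep1b and 1.14 for Dpp4, so a doubling in VSG was not outside the interval of any member under every alternative. For Mep1a the interval from all 10 libraries, -1.10 to 2.23, excluded neither a doubling nor a halving. Without VSG 2, SPF 2 and SPF 4 its interval was -0.46 to 0.94, which holds neither.

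The summed level of the enterocyte markers, like the members' means, was higher on average in VSG. It averaged 29610 ± 4372 CPM in VSG and 23539 ± 7273 CPM in SPF (SD, n = 5 each). The lowest library was SPF 5, at 15774 CPM, which also had the highest sum of 7 smooth muscle markers, 3733 CPM against 288 to 1903 CPM in the other 9. SPF 4, the lowest library for all 5 tested members, was next to lowest, at 18553 CPM. SPF 2 had a high sum, 31695 CPM, beside its low Mep1a level of 444 CPM. Fabp2 alone gave 10518 CPM of that sum, its highest level in any library. The part of the enterocyte share in the members' levels was not tested beyond the fit that follows. With the mean log2 CPM of the enterocyte markers in the model, the log2 fold changes were 0.017 (-0.63 to 0.66) for Anpep, 0.11 (-0.48 to 0.70) for Dpp4 and 0.037 (-0.35 to 0.42) for Mep1b. For Mep1a and Xpnpep2 they were -0.26 (-2.58 to 2.05) and -0.31 (-1.91 to 1.29). The markers' own log2 fold changes ran from 0.12 for Lgals4 to 0.59 for Eps8. They include the microvillus gene Vil1, so this covariate does not stand for the enterocyte share alone. In bulk tissue, fewer enterocytes and less RNA of a gene in each enterocyte cannot be told apart.

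**Figure D2:**
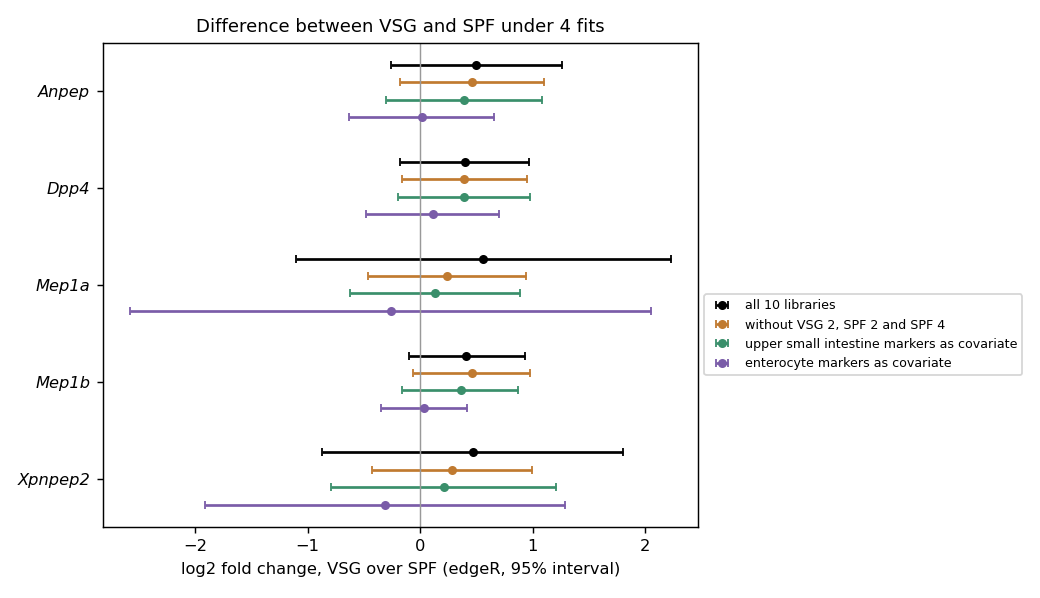
Log2 fold change of VSG over SPF (horizontal axis) for the 5 tested members, with 95% intervals, from all 10 libraries, without VSG 2, SPF 2 and SPF 4, and with either marker list as a covariate. Every interval spans 0, and with enterocyte markers as a covariate the values lie between -0.31 and 0.11.

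Set against Vil1, which encodes villin, an actin-bundling protein of the microvillus, the members varied between libraries to different degrees. This ratio was chosen after the values were seen. Anpep stood at 3.25, 2.47, 3.27, 3.39 and 3.20 times the CPM of Vil1 in VSG 1 to VSG 5, and at 3.18, 2.79, 3.03, 1.19 and 3.24 times in SPF 1 to SPF 5. In the 7 libraries with ileal markers the ratio thus kept within 3.03 to 3.39, and it was below that range in VSG 2, SPF 2 and SPF 4. Vil1 is also among the genes most like Anpep in those 7 libraries, so part of this narrow range follows from that likeness. The ratio of Dpp4 to Vil1 was 0.233 to 0.327 in VSG and 0.166 to 0.332 in SPF. The ratio of Mep1b to Vil1 was 0.395 to 0.529 in VSG and 0.30 to 0.508 in SPF. For Mep1a it was 0.384 to 0.751 in the 7 libraries and 0.0328 to 0.117 in the 3. For Xpnpep2 it was 0.141 to 0.252 in the 7 and 0.0132 to 0.126 in the 3. Xpnpep2 was therefore below all 7 in each of the 3 on this scale, though not in CPM. Group means of the ratio were close, for Anpep at 3.11 ± 0.368 in VSG and 2.69 ± 0.856 in SPF (SD, n = 5 each).

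**Figure D3:**
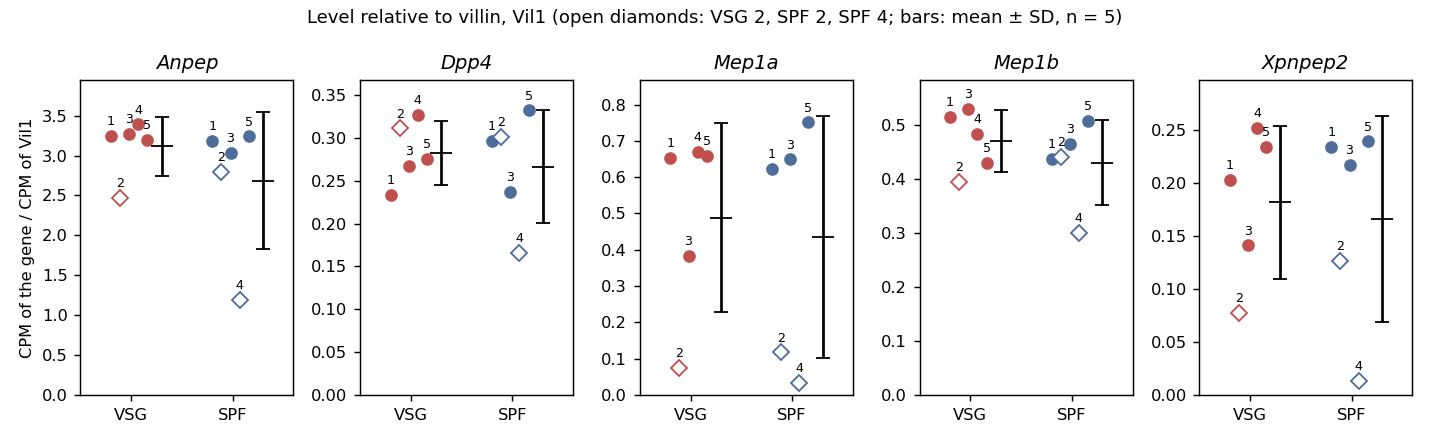
Ratio of each peptidase's CPM to that of Vil1 (vertical axis, linear) by library, VSG left and SPF right, with mean ± SD bars (n = 5) and open diamonds for VSG 2, SPF 2 and SPF 4. For Anpep the filled points of both groups lie between 3.03 and 3.39, and for Mep1a and Xpnpep2 the diamonds lie below every filled point.

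Compared per length, as CPM per kilobase of merged exons in GENCODE M21, Anpep was the highest member in every library and the order of the others varied. Anpep stood, at 2702 ± 439.9 in VSG and 1911 ± 789 in SPF (SD, n = 5 each). Mep1b followed at 639 ± 64.8 in VSG and 480.3 ± 152 in SPF, and Mep1a at 511 ± 290.5 in VSG and 345 ± 265 in SPF. These means pool libraries that differ. Mep1b was far above Mep1a in VSG 2 (544 against 77.8), SPF 2 (640.5 against 129) and SPF 4 (309 against 25.7). VSG 3 stood between, at 669 against 369. They were closer in the other 6, from 609 against 587 in VSG 1 to 661 against 770.1 in VSG 5. Dpp4 stood at 162 ± 34.2 in VSG and 123 ± 41.8 in SPF, and Xpnpep2 at 135 ± 61.7 in VSG and 97.7 ± 57.6 in SPF. In VSG 2, SPF 2 and SPF 4 Dpp4 was the higher (178 against 57.4, 181 against 98.6 and 71.3 against 7.34). Among the other libraries the order varied, as with 140.3 against 95.9 in VSG 3 and 176 against 194 in VSG 5. In SPF 4 alone Tmprss15, at 7.53, was level with Xpnpep2, at 7.34. Together the 6 genes took 1.21% to 1.93% of all counts in VSG libraries and 0.493% to 1.5% in SPF libraries, and Anpep made up 66.2% to 74.2% of their summed CPM in VSG and 63.9% to 73.9% in SPF.

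Among the 7 libraries with ileal markers, the members varied together to different degrees. Of 10 pairs, the closest were Mep1a with Xpnpep2 (r = 0.97, rho = 0.89, exact permutation p = 0.00317 and 0.0123, adjusted over the pairs 0.0159 and 0.0308, n = 7) and Anpep with Mep1b (r = 0.96, rho = 0.96, exact permutation p = 0.00238 and 0.00278, adjusted 0.0159 and 0.0139). Without the 2 libraries farthest from the median of the first gene named in each pair, their r was 0.91 and 0.81. Anpep with Dpp4 had r = 0.88 and rho = 0.96 (exact permutation p = 0.00516 and 0.00278, adjusted 0.0172 and 0.0139, n = 7), and r = 0.78 without the 2 farthest. The meprin subunits had the lowest value, r = 0.56 and rho = 0.39 (exact permutation p = 0.188 and 0.396, adjusted 0.188 and 0.396, n = 7). Without the 2 libraries farthest from the Mep1a median their r was 0.92, the highest of the 10 pairs on that measure. Their value thus depended on which libraries were kept, and leaving libraries out by Mep1b was not tried. Each library's share of enterocytes enters all members at once, and its part in these values was not tested. VSG and SPF libraries were pooled, so the difference between the groups enters these values too, and its part was not tested.

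Among 14178 other genes, those most like each member in these 7 libraries were found by Pearson r of log2 CPM. These are descriptions of 7 libraries, VSG and SPF pooled, with no p. The summed level of the enterocyte markers ran from 15774 to 34556 CPM among them, and its part in these values was not tested. For Anpep they were Neurl3 (0.998), Sfxn1 (0.994) and Vil1 (0.992). For Dpp4 they were Osbpl6 (0.987), Gramd1b (0.979) and Slc25a15 (0.975), and for Mep1b Mfsd1, Ercc3 and Gdi2 (0.990 each). For Mep1a they were Tapbp (0.976), Abcg5 (0.976) and Btg2 (0.975). For Xpnpep2 they were Slc37a4 (0.980), Slc6a20a (0.978) and Grin2a (0.978).

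Other membrane peptidases of the brush border gave the same picture of 0 calls and a split by library. Of 8 genes, 7 were tested, with 5 fitted higher and 2 lower in VSG and a median log2 fold change of 0.28. Without the 3 libraries all 7 were fitted higher, with a median of 0.39, and with the enterocyte markers as a covariate all 7 were fitted lower, with a median of -0.21. Over all genes tested, the share fitted higher was 41.9%, 43.2% and 45.8% in these fits, in the same order. Folh1 was too low. Naaladl1, a relative of the folate hydrolase Folh1 expressed in ileum, stood at 1463 to 7524 CPM in VSG and 201 to 6270 CPM in SPF (log2 fold change 0.56, edgeR adjusted p = 0.977, and 0.32 without the 3 libraries). Enpep, which encodes aminopeptidase A, had a log2 fold change of 0.44 ± 0.35 (SE, edgeR adjusted p = 0.977), and 0.38 without the 3. VSG 2, SPF 2 and SPF 4 were below the other 7 for Naaladl1 and for Dpep1, a membrane dipeptidase, as they were for Mep1a. They were above the other 7 for Ace, which encodes angiotensin-converting enzyme, at 1761 to 3329 CPM in the 3 and 313 to 819 CPM in the 7. The same held for Mme, which encodes neprilysin, at 531 to 751 CPM in the 3 and 49.2 to 225 CPM in the 7. Of all genes tested, 6.08% had the 3 above the other 7. Dpep1, Ace and Mme were named after their values were seen.

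Peptidases inside the cell break down peptides after uptake and in protein turnover. All 14 were tested, with 13 fitted higher and 1 lower in VSG, 0 called and a median of 0.12 on the log2 scale. Without the 3 libraries there were 12 higher and 2 lower, with a median of 0.11. The share fitted higher over all genes tested was 41.9%, and 43.2% without the 3. Xpnpep1, the cytosolic aminopeptidase P, stood at 538, 671, 676, 690.4 and 720.1 CPM in VSG 1 to VSG 5, and at 397, 598, 655, 324 and 312 CPM in SPF 1 to SPF 5. Its log2 fold change was 0.53 ± 0.23 (SE, edgeR unadjusted p = 0.0438, adjusted p = 0.977), and it was 0.53 without the 3 libraries (edgeR unadjusted p = 0.0786) and 0.18 with the enterocyte markers as a covariate (edgeR unadjusted p = 0.324). Cndp2, a cytosolic dipeptidase, had a log2 fold change of 0.15 ± 0.34 (SE, edgeR adjusted p = 0.985), and 0.0786 without the 3.

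Carriers that take up the products were divided. Of 11 genes, 10 were tested, with 5 fitted higher and 5 lower in VSG, 0 called and a median of 0.10 on the log2 scale. Without VSG 2, SPF 2 and SPF 4 there were 9 higher and 1 lower, with a median of 0.33. The share fitted higher over all genes tested was 41.9%, and 43.2% without the 3. Slc6a19, the main carrier of neutral amino acids, had a log2 fold change of 0.61 ± 0.31 (SE, edgeR adjusted p = 0.977), and 0.85 without the 3 (edgeR unadjusted p = 0.0366, adjusted p = 0.696). With the enterocyte markers as a covariate it was 0.0504 (edgeR unadjusted p = 0.853). Slc15a1, which encodes the peptide transporter PepT1, stood at 317 to 716 CPM in VSG and 243 to 1050 CPM in SPF (log2 fold change 0.24, edgeR adjusted p = 0.983), and at 0.60 without the 3 on the log2 scale (edgeR adjusted p = 0.749).

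The relatives and substrates of DPP4 showed no call either. Of 8 genes, 1 was fitted higher and 7 lower in VSG, and the median was -0.41 on the log2 scale. The counts were again 1 and 7 without the 3 libraries, where the median was -0.50. Over all genes tested, the share fitted higher was 41.9%, and 43.2% without the 3. Fap, Dpp6 and Dpp10 were low, with means of 0.932 to 1.69 CPM. Gip split by library, at 53.5 to 89.1 CPM in VSG 2, SPF 2 and SPF 4 and 1.62 to 8.66 CPM in the other 7. Gcg, from which glucagon-like peptide 1 is made, had a log2 fold change of -0.42 ± 0.42 (SE, edgeR adjusted p = 0.977), and -0.78 without the 3 libraries (edgeR unadjusted p = 0.0346, adjusted p = 0.696). Without SPF 3 alone, the library with the highest Gcg level, it was -0.0535 (edgeR unadjusted p = 0.895). Pyy had a log2 fold change of 0.23 ± 0.74 (SE, edgeR adjusted p = 0.990), and -0.12 without the 3.

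**Figure D4:**
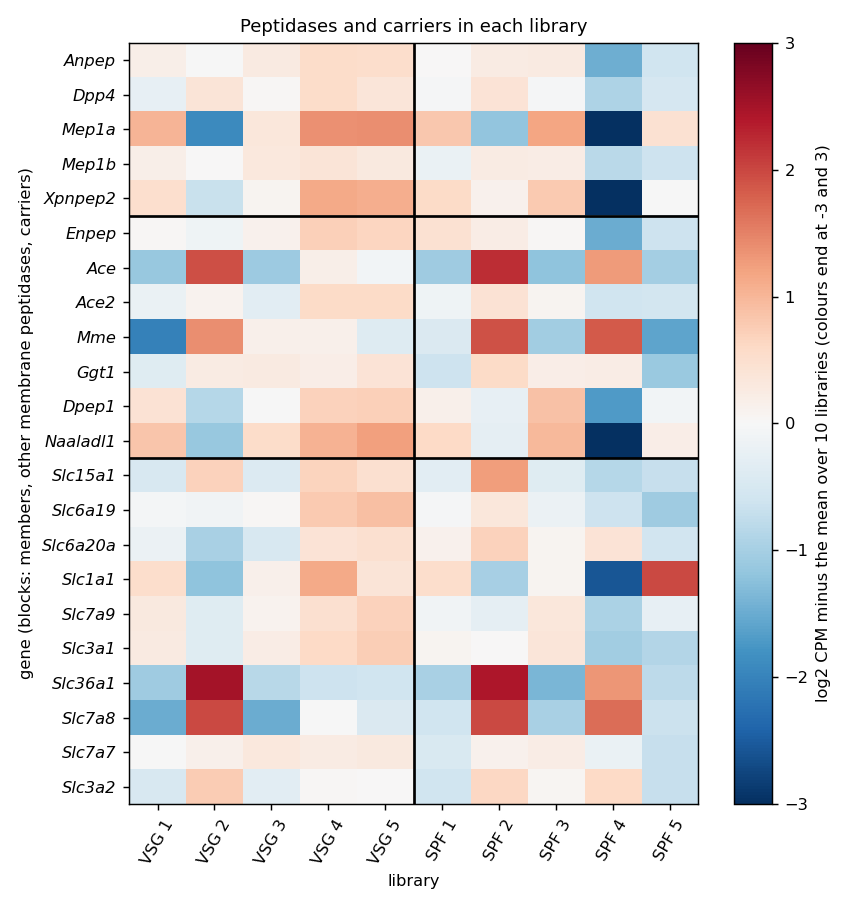
Log2 CPM of the tested members, other membrane peptidases and carriers (rows) in each library (columns, VSG left of SPF), as the difference from each gene's mean over 10 libraries. Mep1a and Naaladl1 are low, and Ace and Mme high, in VSG 2, SPF 2 and SPF 4.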

How the data were processed

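RNA from mouse terminal ileum was sequenced as single-end reads from Illumina TruSeq libraries, per the labels' protocols. The authors deposited a table of estimated counts for each library, although its name mentions RPKM. These values sum to 15364651 to 34058181 per library, and 61.18% of all values, or 33.33% of those above 0, are exactly whole. The second deposited file holds log2 values centred on the sham median, used in 1 alternative. DESeq and mm9 stand in the submitters' processing notes. The aligner and strand setting are not given in the sources used here. Overlapping antisense genes are therefore not separable (Gm13561 at Dpp4 averaged 46.5 reads a library).

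Estimated counts were rounded and fitted across all genes with edgeR 4.0.16 in R 4.3.3: filterByExpr, TMM, a quasi-likelihood test of group, Benjamini-Hochberg adjustment and a threshold of 0.05. Intervals are at 95%. Log2 CPM used a prior count of 2. On counts simulated for this comparison, 42% of 2-fold and 93% of 4-fold changes were called among 15514 genes, with 7 false of 142 calls. Each gene was drawn independently around its mean. The split of VSG 2, SPF 2 and SPF 4 and other variation shared between genes were not simulated, so these shares may differ in the real libraries. Alternatives used DESeq2 1.42.0 and limma 3.58.1. Each label names a sample of a mouse, but not which animal, so p-values measure the spread between these samples.

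The members, gene lists and tests were chosen with earlier results of these data known. Genes named from the lists are those with an unadjusted p under 0.05 (at most 4) and the 2 most abundant of each, and those most like a member are the 3 with the highest r. Correlations cover 10 pairs, as Tmprss15 was at or near 0. Gene lengths are from GENCODE M21 and promoters from RefSeq (GRCm38.p6), another build than mm9.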

Additional observations from a re-analysis of the deposited data

Results flagged for a closer look

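Within each group of 5 libraries, a library was singled out where its gap to the nearest other was too large a part of the group's range (Dixon's test at 95%). Of 28 groups of values examined, 4 were singled out. Chance singles out about 5% of groups of continuous values, which Tmprss15 in VSG is not. Tmprss15 in SPF 4 stood at 31.5 CPM, against 0 to 0.0394 CPM in the other SPF libraries. Tmprss15 in VSG 4 stood at 0.0337 CPM, which is 1 read, against 0 in the other VSG libraries, and 1 read among zeros is always singled out. Xpnpep1 in VSG 1 stood at 538 CPM, below the 671 to 720.1 CPM of the other VSG libraries. Slc15a1 in SPF 2 stood at 1050 CPM, above the 243 to 354 CPM of the other SPF libraries, and its log2 fold change of VSG over SPF was 0.24 with SPF 2 and 0.82 without it.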

How the results depend on the processing

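DESeq2 called 14 genes where edgeR called 0, and the count was 0 without each library in turn (0 to 0). The 5 tested members stayed above 0 and uncalled under 20 alternatives each, except that with the enterocyte markers as a covariate Mep1a was at -0.26 and Xpnpep2 at -0.31. Under that covariate the median of the other membrane peptidases was -0.21, Naaladl1 was at -0.23, Enpep at -0.0906, Cndp2 at -0.38, Slc15a1 at -0.0956 and Pyy at -0.45, and the cause was not tested. Slc6a19 stayed above 0 there at 0.0504 and Xpnpep1 at 0.18. Gcg ran from -0.63 to -0.0535 with each library left out, nearest 0 without SPF 3. Pyy was also below 0 without VSG 2, SPF 2 and SPF 4 (-0.12) and with the upper small intestine markers as a covariate (-0.0735). With each library left out, Pyy ran from -0.0833 to 0.80 and Cndp2 from -0.0403 to 0.41. Anpep ran from 0.31 to 0.64, Dpp4 from 0.27 to 0.58, Mep1a from 0.27 to 0.95, Mep1b from 0.30 to 0.53 and Xpnpep2 from 0.18 to 0.71, each lowest without SPF 4. The lowest unadjusted p of the 5 tested members was 0.0446, for Mep1b without SPF 3 (edgeR adjusted p = 0.402, the lowest of those 5). The carriers' median ran from -0.0542 to 0.45.

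The replicate numbers share only a number: deviations of same-numbered libraries correlated at -0.319 to 0.182, and 0 of 5 VSG libraries matched their own number best. With the number as a replicate block, the log2 fold changes were 0.60 for Anpep, 0.43 for Dpp4, 0.59 for Mep1a, 0.47 for Mep1b and 0.58 for Xpnpep2, with 0 genes called. The spread between libraries, not read depth, sets the intervals of the 5 tested members, each of which had at least 643 reads in every library. For Tmprss15, read depth sets only the lowest level that could be seen in the 9 libraries with 0 or 1 read. SPF 4 held 565 reads at a total of 16848364, while SPF 5 held 0 at a total of 34058181.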
